A study of Mus musculus with 12 samples.

Results

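The genes described here drive or carry out cell division: cyclins, cyclin-dependent kinases (Cdks) and their inhibitors, the pocket proteins and E2F4, and the proteins that license, unwind and copy DNA. They were chosen by name, as a list of 42 gene symbols, and 41 of them were found among the 11791 genes of the deposited table. Ccne2, which encodes cyclin E2, was not analysed here. All 41 passed the filter on low values, a group mean of at least 1, as did every gene of the table.

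RNA from mouse liver was sequenced in 12 libraries, each a pool of RNA from 2 males. The animals were 10 weeks old, carried the strain label C57BL/6 and ate a diet deficient in methionine and choline (MCD), which gives mice a fatty, inflamed liver, for 3 weeks. The 4 control pools came from mice with Lyzs-Cre, a Cre recombinase driven by the lysozyme 2 locus and active in myeloid cells. The 4 KO pools came from mice with Lyzs-Cre that lacked p38γ and p38δ, stress-activated kinases, in the cells where that Cre acts. The 4 anti-Ly6G pools came from Lyzs-Cre mice given an antibody against the neutrophil surface protein Ly6G. Their titles carry the name GR1, an antigen that includes Ly6G. All groups therefore carried the Cre and ate the MCD diet, and no comparison is with a liver on another diet. The labels also name the strain that gave the mitochondria. It was C57 for every control pool and for KO pools 1 and 2, whereas KO pools 3 and 4 and each anti-Ly6G pool had NZB, so antibody and mitochondria cannot be told apart between those 2 groups. Whether the pools hold separate animals is not stated, and p-values measure the spread between pools.

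A dividing cell first builds up D-type cyclins, whose kinases Cdk4 and Cdk6 phosphorylate the retinoblastoma family of pocket proteins and so release the transcription of replication genes by E2F factors. Cyclin E and cyclin A with Cdk2 then start DNA synthesis at origins loaded with the Mcm helicase, and cyclin B with Cdk1 starts mitosis. Adult hepatocytes are mostly quiescent and divide again after injury, and in a diseased liver macrophages, stellate cells and duct cells can divide too.

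Levels are in RPM, reads scaled by a library size that was adjusted by the trimmed mean of M-values (TMM). Each pool held 13.1 to 22.3 M recovered reads, and 3 reads were worth 0.125 to 0.242 RPM. The least abundant member, Pole, was covered by 16 reads in its lowest pool. The hepatocyte markers were high in all groups (Alb 70400 to 107000 RPM). Mapk12, which encodes p38γ, lay at 1.75 to 2.71 RPM in control pools and 1.63 to 3.06 RPM in KO pools, so whole liver does not show the myeloid deletion. Same-group pools differed by more than sampling noise, with a chi-square per gene of 9.62 to 63.1. Differences are of mean log2(RPM + 0.5), which understates the change of low genes, and were tested with limma-trend and Benjamini-Hochberg adjustment over all 11791 genes at 0.05.

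Few members changed. In anti-Ly6G against control, Ccnd1 and Cdc20 rose, and Ccnd3, Ccnf, Rbl2, Orc2, Rrm2 and Rpa1 fell, so that 8 of 41 members (19.5%) passed the test. Over all genes 30.4% passed in this comparison, 15.1% higher and 15.3% lower, so the members' share lay below the background. In KO against control 1 of 41 members passed (2.44%), Ccnf, which rose, where 1.12% of all genes did, 0.585% of them higher and 0.534% lower. Over all genes 1775 were higher and 1805 lower in anti-Ly6G (1267 and 1977 with total-count scaling), and 69 were higher and 63 lower in KO (123 and 37). The KO counts rested on single libraries, with 2 to 177 genes higher and 1 to 142 lower when 1 was left out, fewest without control pool 2 and most without control pool 4. An unadjusted p under 0.05 was found for 14 of 41 members in anti-Ly6G, beside 42.3% of all genes. In KO it was found for 7 of 41, beside 18.9% of all genes. Pools of the 2 groups did not overlap for 6 of 41 members, all lower, in anti-Ly6G, beside 13.1% of all genes lower and 14.2% higher. In KO they did not overlap for 2 higher and 2 lower members, beside 5.73% of all genes higher and 6.62% lower. The median difference of the 41 members was -0.06 in anti-Ly6G and 0.06 in KO against control, beside 0.00 over all genes in both. With 1 library left out these medians ran from -0.14 (without anti-Ly6G pool 2) to 0.00 (without anti-Ly6G pool 4) and from 0.03 (without control pool 3) to 0.11 (without control pool 4), and the anti-Ly6G median was -0.18 with the mitochondria label as a covariate. Both comparisons use the same 4 control pools.

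**Figure D1:**
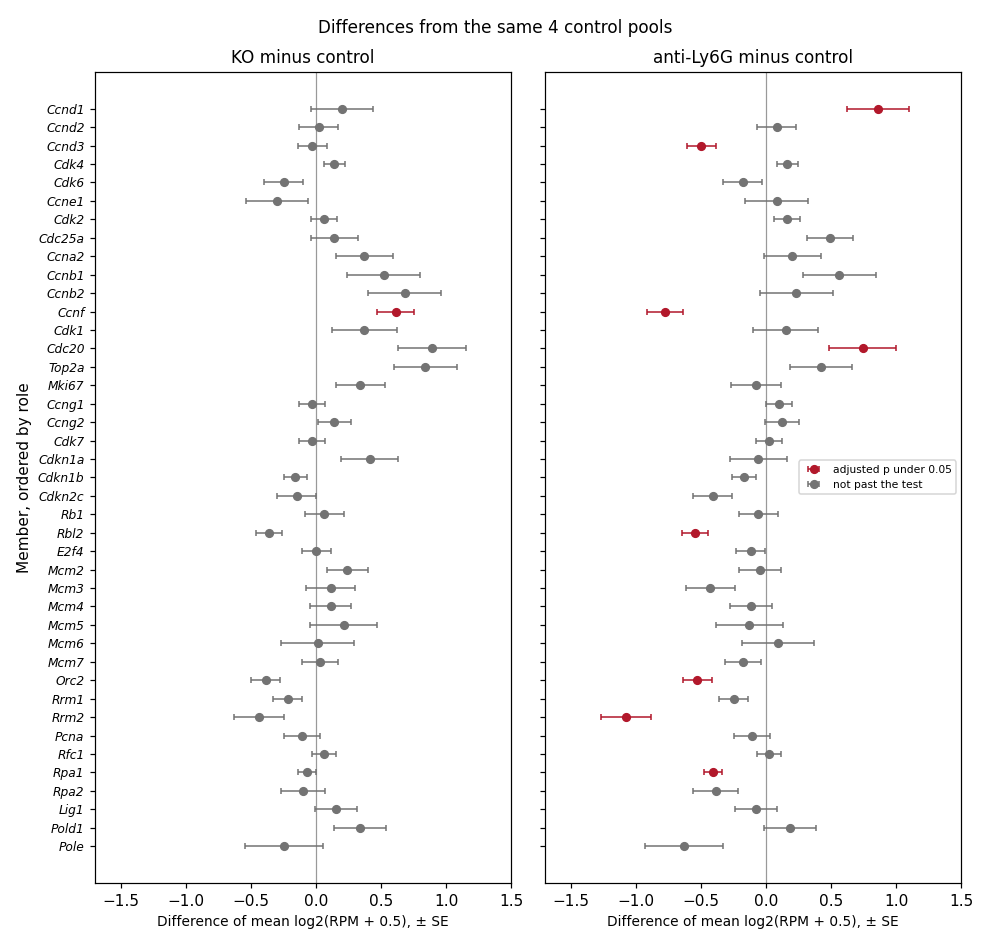
Difference of mean log2(RPM + 0.5) from control for each of the 41 members, in KO (left) and anti-Ly6G (right), with bars of 1 SE from limma and red points past the test. Ccnf is the single red point on the left at 0.61, and 8 red points on the right run from -1.08 (Rrm2) to 0.86 (Ccnd1).

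Among the D-type cyclins, Ccnd1 and Ccnd3 moved in opposite directions in anti-Ly6G. Ccnd1 encodes cyclin D1, the D cyclin most tied to hepatocyte division (chromosome 7, 144929931 to 144939925, minus strand, GRCm38). It stood at 66.1, 69.1, 67.0 and 121 RPM in control pools 1 to 4, at 78.8, 64.3, 116 and 110 RPM in KO pools 1 to 4 and at 109, 147, 212 and 120 RPM in anti-Ly6G pools 1 to 4. Control pool 4 was as high as the lower anti-Ly6G pools, so the groups overlap, and anti-Ly6G pool 3 was the highest. The difference from control was 0.86 ± 0.24 (SE) in anti-Ly6G (limma, adjusted p = 0.0175) and 0.20 ± 0.24 in KO (adjusted p = 0.699). Within KO, the 2 pools of the C57 mitochondria label were at 64.3 to 78.8 RPM and the 2 of the NZB label at 110 to 116 RPM. Over all groups the labels overlapped (64.3 to 121 RPM and 109 to 212 RPM), but only through control pool 4. With the mitochondria label as a covariate the anti-Ly6G difference was 0.20 and did not pass (limma, adjusted p = 0.773), and the KO difference was -0.13.

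Ccnd3, the gene of cyclin D3 (chromosome 17, 47505051 to 47599691, plus strand), was lower in every anti-Ly6G pool than in any other pool. Its control pools were at 71.3, 51.6, 54.3 and 51.7 RPM, its KO pools at 57.3, 55.4, 57.1 and 51.9 RPM and its anti-Ly6G pools at 35.0, 39.8, 39.9 and 45.9 RPM. It fell by 0.50 ± 0.11 in anti-Ly6G against control (limma, adjusted p = 0.00366), while KO differed from control by -0.03 (adjusted p = 0.898), a difference of 0.08 without control pool 1 and 0.03 with total-count scaling. The third D cyclin, Ccnd2, averaged 4.84 ± 0.820 (SD, n = 4 here and below) in control, 4.94 ± 0.980 in KO and 5.11 ± 0.628 RPM in anti-Ly6G. The kinases these cyclins activate did not pass in any comparison. Cdk4 averaged 45.6 ± 4.61, 50.3 ± 1.40 and 51.0 ± 2.94 RPM in the same order, and Cdk6 6.59 ± 1.15, 5.39 ± 0.392 and 5.80 ± 1.37 RPM.

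None of the 3 measured genes of S phase entry passed in any comparison. Cdc25a, the phosphatase that activates Cdk2, came closest in anti-Ly6G, at 3.61 ± 0.953 RPM in control and 5.23 ± 1.23 RPM in anti-Ly6G (0.49, limma, adjusted p = 0.0554). It passed without control pool 4 (0.62) and without anti-Ly6G pool 1 (0.58). Ccne1, cyclin E1, averaged 2.48 ± 0.700, 1.89 ± 0.310 and 2.72 ± 0.973 RPM in control, KO and anti-Ly6G. Cdk2, its partner, averaged 10.1 ± 1.25, 10.6 ± 0.490 and 11.4 ± 0.933 RPM.

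Ccnf was 1 of 2 members, with Rbl2, whose pools did not overlap between any of the 3 groups. It encodes cyclin F, which does not activate a Cdk but is the substrate-binding part of an SCF ubiquitin ligase that marks Rrm2 and other proteins for degradation (chromosome 17, 24222198 to 24251484, minus strand). The control pools lay at 8.0, 8.32, 9.98 and 9.91 RPM, the KO pools at 11.9, 16.6, 14.1 and 13.9 RPM and the anti-Ly6G pools at 4.17, 4.51, 5.29 and 6.47 RPM. Every KO pool exceeded every control pool, and every control pool exceeded every anti-Ly6G pool. Over all genes, 12.4% had no overlap between KO and control pools and 27.3% none between anti-Ly6G and control pools. Ccnf rose by 0.61 ± 0.14 in KO (limma, adjusted p = 0.0492) and fell by 0.78 ± 0.14 in anti-Ly6G (adjusted p = 0.00125). The direct difference of KO from anti-Ly6G was 1.39 ± 0.14 (limma, adjusted p = 2.44e-05).

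The adjusted p of the rise in KO lay close to the threshold. In KO the call was lost without control pool 1 (0.56), 2 (0.58) or 3 (0.66) and without KO pool 1 (0.69), 2 (0.54), 3 (0.61) or 4 (0.62). It was also lost with the mitochondria label as a covariate (0.61), although KO pools lay at 11.9 to 16.6 RPM with the C57 label and at 13.9 to 14.1 RPM with the NZB label. In anti-Ly6G the call was lost with that covariate (-0.78, limma, adjusted p = 0.0675) and with no left-out library.

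Cdc20, the activator of the anaphase-promoting complex (chromosome 4, 118432901 to 118437352, minus strand), was low throughout, at 2.46, 3.16, 1.19 and 4.16 RPM in control pools. Its KO pools were at 5.06, 5.43, 5.78 and 4.31 RPM and its anti-Ly6G pools at 3.41, 4.51, 6.68 and 4.20 RPM. The KO pools were all above the control pools, and the anti-Ly6G pools overlapped them. It rose by 0.74 ± 0.26 in anti-Ly6G (limma, adjusted p = 0.0474) but the larger difference of 0.89 ± 0.26 in KO did not pass (adjusted p = 0.104, and 1.09 and past the threshold without control pool 4). The anti-Ly6G call was lost in 12 of 16 alternative fits, among them those without control pool 1 (0.73), 2 (0.83) or 3 (0.46) and without anti-Ly6G pool 2 (0.75), 3 (0.57) or 4 (0.78). Only 65.1% of the 25-base words of Cdc20 occur in no other annotated gene, so its level is less certain.

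The other 6 mitotic members did not pass in any comparison. Top2a, the topoisomerase that untangles replicated chromosomes, stood at 8.63, 3.71, 2.97 and 5.75 RPM in control, 7.81, 8.12, 11.6 and 9.42 RPM in KO and 5.82, 7.75, 7.01 and 6.39 RPM in anti-Ly6G pools. Its KO difference was 0.84 ± 0.24 (limma, adjusted p = 0.0930, and 1.1 and past the threshold without control pool 1). Mki67, the gene of the proliferation antigen Ki-67, averaged 11.1 ± 2.90 RPM in control, 14.0 ± 2.60 RPM in KO and 10.4 ± 1.98 RPM in anti-Ly6G. Cdk1, the mitotic kinase, averaged 5.36 ± 2.54, 6.57 ± 0.981 and 5.53 ± 0.554 RPM. For its cyclin partners the averages were 3.41 ± 1.05, 4.44 ± 0.753 and 3.94 ± 1.04 RPM (Ccna2), 3.55 ± 1.75, 4.96 ± 1.11 and 5.11 ± 1.16 RPM (Ccnb1) and 3.75 ± 1.99, 5.76 ± 0.768 and 4.12 ± 0.889 RPM (Ccnb2).

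**Figure D2:**
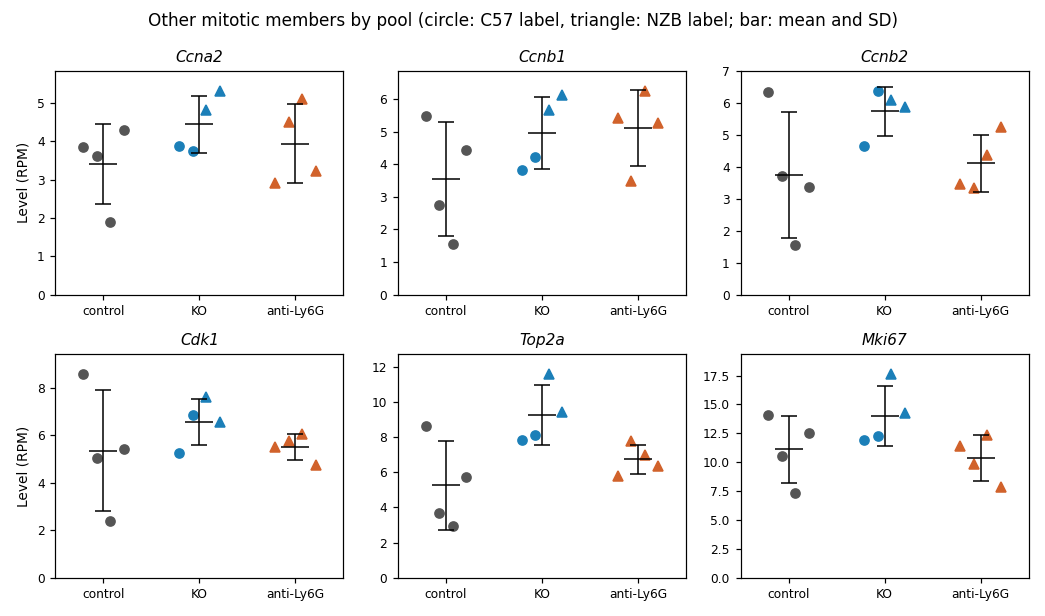
Level in RPM of the 6 mitotic members that did not pass the test, 1 point per pool (circles C57 label, triangles NZB label), with bars for mean and SD. The control pools span wide ranges, such as 2.97 to 8.63 RPM for Top2a, within which most anti-Ly6G pools lie.

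As a group, all 8 mitotic members had a KO difference above 0, from 0.34 (Mki67) to 0.89 (Cdc20), beside 5852 of all 11791 genes. Their median was 0.57 where the median of all genes was 0.00. Control pool 3 was the lowest control pool in 7 of the 8, and their summed level was 57.5, 40.8, 28.9 and 49.8 RPM in control pools 1 to 4. The KO pools summed to 54.3 to 73.3 RPM, which overlaps the highest control pool, and the anti-Ly6G pools to 42.2 to 53.1 RPM. Without control pool 3 the median KO difference was 0.30, with all 8 still above 0. In anti-Ly6G the median was 0.21, or -0.05 without control pool 3, 0.45 without control pool 1 and -0.01 with the mitochondria label as a covariate.

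A motif known from mitotic genes, the cell cycle homology region TTTGAA, was looked for in RefSeq promoters (GRCm38.p6, from 250 bases before to 50 after a start), which were matched for 34 of the 41 members. On either strand it occurred in 8 of the 34 members (23.5%), 6 of them mitotic, in 14.2% of 8355 tested genes with a promoter and in 17.9% of all 32851 windows. The members were Ccnb2, Ccnf, Cdc20, Cdk1, Mki67, Top2a, Mcm2 and Rbl2. A match is a string of letters and not a shown binding site. The 250 bases before the start are shown for the 3 members that hold it and passed the test in anti-Ly6G, since these are the regions whose genes moved. Capitals mark the motif, which reads TTCAAA where it lies on the opposite strand, as in Rbl2.
Ccnf, chr17:24251410-24251659, minus strand: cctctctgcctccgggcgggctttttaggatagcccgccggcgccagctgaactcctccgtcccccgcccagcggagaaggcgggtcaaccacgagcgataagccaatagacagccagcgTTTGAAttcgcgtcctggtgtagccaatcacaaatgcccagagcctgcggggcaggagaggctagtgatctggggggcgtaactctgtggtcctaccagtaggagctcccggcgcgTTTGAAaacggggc
Cdc20, chr4:118437344-118437593, minus strand: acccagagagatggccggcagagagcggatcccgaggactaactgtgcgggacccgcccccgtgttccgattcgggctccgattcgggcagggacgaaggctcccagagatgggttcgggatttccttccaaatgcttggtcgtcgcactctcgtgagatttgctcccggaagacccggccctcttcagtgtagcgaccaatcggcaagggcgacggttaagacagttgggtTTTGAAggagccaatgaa
Rbl2, chr8:91069807-91070056, plus strand: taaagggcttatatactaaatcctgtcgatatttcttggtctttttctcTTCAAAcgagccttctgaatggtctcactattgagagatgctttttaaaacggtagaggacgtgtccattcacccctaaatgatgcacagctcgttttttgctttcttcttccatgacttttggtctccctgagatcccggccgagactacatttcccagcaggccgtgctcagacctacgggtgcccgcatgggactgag

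Counted from the RefSeq start, the first base of the motif is at -130 and -14 in Ccnf, at -18 in Cdc20 and at -201 in Rbl2. RefSeq starts can differ from the limits of the GENCODE genes. On the minus strand the GENCODE genes of Ccnf and Cdk1 reach to 24251484 and 69352938. Their matches nearest before the RefSeq start therefore lie inside those genes. Further matches lie at -71 in Cdk1, -179 in Top2a, -116 in Mki67 and, after the start, at 5 in Ccnb2. For comparison, these are the windows around the nearest match before the start in the mitotic members that hold the motif and did not pass the test. They differ in the flanking letters and in the distance to the start.
Cdk1, chr10:69352913-69352939, minus strand, first base at -15: taccgcggcgagTTTGAAactgctggc
Top2a, chr11:99024195-99024224, minus strand, first base at -23, opposite strand: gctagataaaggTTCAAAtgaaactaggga
Mki67, chr7:135716460-135716489, minus strand, first base at -98: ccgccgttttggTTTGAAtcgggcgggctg
Ccnb2, chr9:70421704-70421733, minus strand, first base at -167: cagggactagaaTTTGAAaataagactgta
The nearest match before the RefSeq start thus lies at -14 in Ccnf, -15 in Cdk1, -18 in Cdc20 and -23 in Top2a, and further away in Mki67 and Ccnb2. From control, Ccnf differed by 0.61 in KO and -0.78 in anti-Ly6G, and Cdc20 by 0.89 and 0.74. Cdk1 differed by 0.37 and 0.15, neither past the test (limma, adjusted p = 0.448 and 0.679). Top2a differed by 0.84 and 0.42, also not past it. Whether the motif bears on these differences was not tested. The E2F sites TTTCCCGC, TTTGGCGC and TTCCCGCC, the first and last of which can overlap, were found on either strand in Cdc25a, Cdk2, Mcm3, Mcm5, Mcm6, Mcm7, Pold1 and Rrm1. These are 8 of 34 members (23.5%), beside 6.71% of tested genes and 3.21% of all windows, and none of the 8 passed in any comparison. The CCAAT box, searched as CCAAT on either strand, was present in 25 of 34 members (73.5%), 43.1% of tested genes and 37.4% of all windows.

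**Figure D3:**
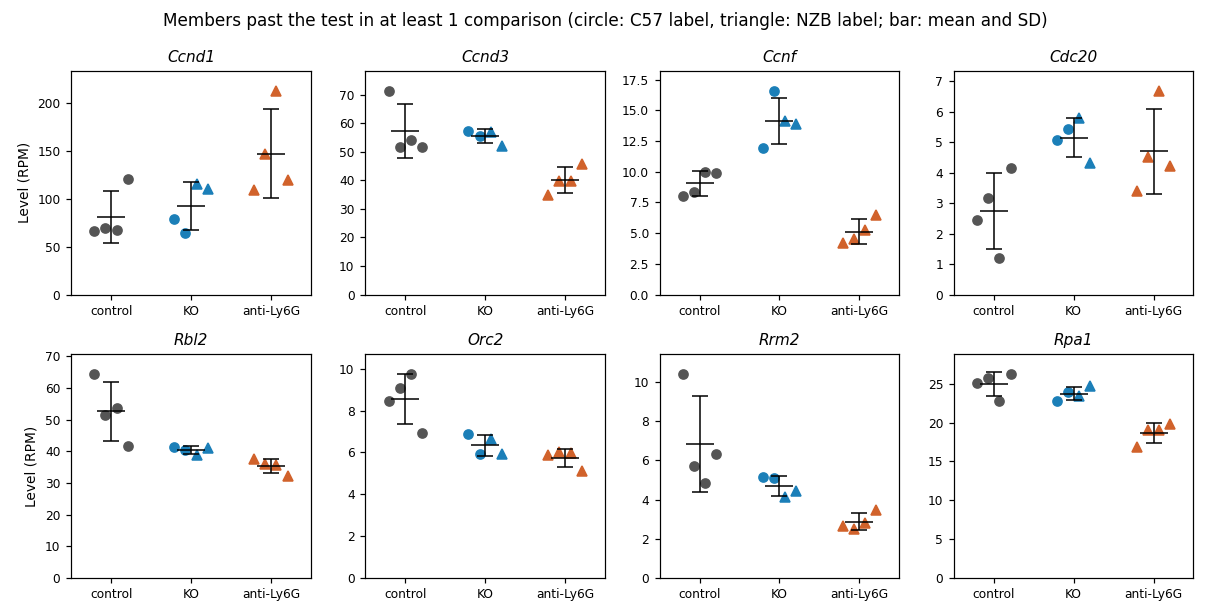
Level in RPM of the 8 members past the test in at least 1 comparison, 1 point per pool (circles C57 label, triangles NZB label), with bars for mean and SD. Ccnf and Rbl2 show 3 groups that do not overlap, and Ccnd3, Orc2, Rrm2 and Rpa1 also show anti-Ly6G pools below all control pools.

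Of the pocket proteins and their partner E2F4, which hold cell cycle genes silent in quiescent cells, Rbl2 fell. Rbl2 encodes p130, the pocket protein that is most abundant in resting cells (chromosome 8, 91070057 to 91123844, plus strand). Its control pools were at 64.3, 51.4, 53.6 and 41.6 RPM, its KO pools at 41.4, 40.3, 38.8 and 41.0 RPM and its anti-Ly6G pools at 37.6, 36.0, 35.6 and 32.2 RPM. All KO pools lay below all control pools, only just below control pool 4, and above all anti-Ly6G pools, so no groups overlap. It fell by 0.55 ± 0.10 in anti-Ly6G (limma, adjusted p = 0.00192), and the KO difference of -0.36 ± 0.10 did not pass (adjusted p = 0.0953, or -0.47 and past the threshold without control pool 4). Rb1, the retinoblastoma protein, averaged 8.87 ± 1.33, 9.27 ± 1.28 and 8.53 ± 1.79 RPM in control, KO and anti-Ly6G. E2f4 averaged 15.5 ± 1.62, 15.5 ± 1.82 and 14.3 ± 1.77 RPM, and neither gene passed.

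The 3 Cdk inhibitors did not pass in any comparison. Cdkn1a, p21, a p53 target that blocks Cdk2, was spread widely, at 14.3 to 23.4 RPM in control, 16.4 to 30.9 RPM in KO and 11.8 to 23.8 RPM in anti-Ly6G pools. Cdkn1b, p27, averaged 19.1 ± 1.87, 17.0 ± 0.615 and 16.9 ± 1.81 RPM. Cdkn2c, p18, an inhibitor of Cdk4 and Cdk6, averaged 11.1 ± 1.41 RPM in control, 9.97 ± 1.54 RPM in KO and 8.34 ± 1.89 RPM in anti-Ly6G. Its anti-Ly6G difference of -0.41 just missed the threshold (limma, adjusted p = 0.0560), and it passed without control pool 4 (-0.49) or anti-Ly6G pool 2 (-0.52). The G-type cyclins and Cdk7, the kinase that activates other Cdks, did not pass either, with averages of 26.5 to 29.3 RPM for Ccng1, 12.6 to 14.0 RPM for Ccng2 and 15.9 to 16.5 RPM for Cdk7 over the 3 groups.

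Origin proteins divided into Orc2, which fell in anti-Ly6G, and the Mcm helicase, which did not pass. Orc2, a subunit of the origin recognition complex (chromosome 1, 58462771 to 58505109, minus strand), stood at 8.45, 9.07, 9.74 and 6.94 RPM in control, 6.90, 5.91, 6.66 and 5.93 RPM in KO and 5.88, 6.03, 5.96 and 5.09 RPM in anti-Ly6G pools. Both other groups lay below all control pools, though KO pool 1 (6.90 RPM) only just below control pool 4 (6.94 RPM). The change was -0.53 ± 0.11 in anti-Ly6G (limma, adjusted p = 0.00359) and the KO difference of -0.39 ± 0.11 did not pass (adjusted p = 0.0930, or -0.49 and past the threshold without control pool 4). The 6 Mcm genes, whose products form the ring that unwinds DNA, averaged 3.42 RPM (Mcm5) to 14.6 RPM (Mcm7) in control, 3.89 to 14.8 RPM in KO and 3.09 to 12.8 RPM in anti-Ly6G. Their differences from control ran from 0.01 to 0.24 in KO and from -0.43 (Mcm3) to 0.09 in anti-Ly6G, and none passed.

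Rrm2 showed the largest difference of any member from control. It encodes the small subunit of ribonucleotide reductase, the enzyme that makes deoxynucleotides and whose small subunit is tied to S phase (chromosome 12, 24708241 to 24714146, plus strand). Control pools were at 10.4, 5.71, 4.87 and 6.34 RPM, KO pools at 5.16, 5.12, 4.12 and 4.45 RPM and anti-Ly6G pools at 2.66, 2.48, 2.81 and 3.48 RPM. Each anti-Ly6G pool was lower than each control and KO pool, and KO pools overlapped the lowest control pool. The pools also separated by mitochondria label, with 6 C57 pools at 4.87 to 10.4 RPM and 6 NZB pools at 2.48 to 4.45 RPM. Within KO the 2 labels were at 5.12 to 5.16 RPM (C57) and 4.12 to 4.45 RPM (NZB). Rrm2 fell by 1.08 ± 0.19 in anti-Ly6G (limma, adjusted p = 0.00113), and the KO difference was -0.44 ± 0.19 (adjusted p = 0.226). Rrm1, the large subunit, averaged 14.8 ± 1.71, 12.6 ± 1.29 and 12.4 ± 1.78 RPM in control, KO and anti-Ly6G and did not pass. Rrm2 and its ligase subunit Ccnf both fell in anti-Ly6G, while in KO Ccnf rose and Rrm2 did not pass.

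At the replication fork, Rpa1 fell and the other 6 members did not pass. Rpa1 encodes the largest subunit of replication protein A, which coats single-stranded DNA in replication and repair (chromosome 11, 75298166 to 75348324, minus strand). It stood at 25.1, 25.7, 22.7 and 26.2 RPM in control, 22.8, 24.0, 23.4 and 24.8 RPM in KO and 16.8, 19.0, 19.0 and 19.8 RPM in anti-Ly6G pools, with a narrow spread in each group and no overlap of anti-Ly6G with the others. The change in anti-Ly6G was -0.41 ± 0.07 (limma, adjusted p = 0.00141), and KO differed from control by -0.07 (adjusted p = 0.645). Rpa2, its partner, averaged 6.26 ± 1.97 RPM in control, 5.64 ± 0.553 RPM in KO and 4.55 ± 0.583 RPM in anti-Ly6G (-0.39, adjusted p = 0.0965, or -0.50 and past the threshold without control pool 3). Pcna, the sliding clamp, averaged 25.4 ± 4.58, 23.2 ± 2.12 and 23.4 ± 3.70 RPM, and Rfc1, of the clamp loader, 22.0 ± 1.45, 22.9 ± 1.03 and 22.4 ± 3.01 RPM. Lig1, the ligase that joins Okazaki fragments, averaged 4.20 ± 0.321, 4.75 ± 0.729 and 4.01 ± 0.930 RPM. The polymerase genes were lowest, with Pold1 at 2.30 ± 1.02, 2.92 ± 0.335 and 2.56 ± 0.420 RPM and Pole at 2.83 ± 2.01, 2.04 ± 0.463 and 1.44 ± 0.296 RPM.

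None of the 8 anti-Ly6G calls was kept with the mitochondria label as a covariate, where 973 genes of the table passed in place of 3580. Adjusted p (limma) was then 0.0506 for Rpa1 (-0.45), 0.0992 for Rbl2 (-0.52), 0.122 for Rrm2 (-0.84), 0.132 for Orc2 (-0.51), 0.150 for Ccnd3 (-0.45) and 0.291 for Cdc20 (0.80). In that fit the label's effect comes only from the 2 KO pools of each label. Left-out libraries ended none of the calls of Ccnd1, Ccnd3, Ccnf, Rbl2, Orc2, Rrm2 and Rpa1 in anti-Ly6G against control.

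KO was also compared with anti-Ly6G directly, and 4 of 41 members were higher in KO and 0 lower (9.76% called), where 26.8% of all genes passed, 13.6% higher and 13.1% lower (1608 and 1549, or 2333 and 701 with total-count scaling). They were Ccnf, Ccnd3 (0.47 ± 0.11, limma, adjusted p = 0.00603), Rpa1 (0.34 ± 0.07, adjusted p = 0.00455) and Rrm2 (0.64 ± 0.19, adjusted p = 0.0225). With KO pools 3 and 4 alone, which share the NZB label with the anti-Ly6G pools, 3 of the 4 passed, and Rrm2 (0.52) did not. The Rrm2 call was also lost without KO pool 1 (0.60) or 2 (0.60) and without anti-Ly6G pool 1 (0.61) or 2 (0.58). Pools of KO and anti-Ly6G did not overlap in 7 members, all higher in KO, beside 27.3% of all genes, 13.8% higher and 13.5% lower. For Ccnd1 the difference was -0.66 ± 0.24 (adjusted p = 0.0604), past the threshold without KO pool 3 (-0.78) or anti-Ly6G pool 1 (-0.79). Mcm3 stood at 0.54 (adjusted p = 0.0520) and passed without anti-Ly6G pool 2 (0.65) or 3 (0.64). Ccne1, at -0.38, passed without anti-Ly6G pool 1 (-0.63), and Cdkn1a, at 0.47, passed without KO pool 1 (0.65). An unadjusted p under 0.05 was found for 7 members, beside 39.6% of all genes.

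Levels of different members can be compared only per length, here as RPM per kb of annotated exon in control. On that scale Ccnd1 (17.2), Cdk4 (14.0) and Pcna (10.6) were highest, followed by Ccng1 (7.72), Rbl2 (6.97), Ccnd3 (6.52) and E2f4 (6.32). The mitotic members lay at 0.584 (Top2a) to 2.45 (Ccnb2), the Mcm genes at 0.788 (Mcm2) to 3.30 (Mcm7), and Pole was lowest at 0.254. The order did not follow role, since the G1 members Ccnd2 (0.514) and Cdk6 (0.471) lay below every mitotic member. Among the members past the test, sequence unique to the gene was 99.7% for Rpa1, 98.7% for Ccnf and 90.7% for Ccnd3, but 83.1% for Rrm2, 80.9% for Rbl2, 77.4% for Ccnd1 and 71.7% for Orc2, whose levels are less certain where reads were shared with copies or overlapping genes.

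Other genes of the same processes were read from lists that did not overlap the 41. Of 43 further replication genes, 9 rose and 3 fell in anti-Ly6G against control. Cdt1, which loads the Mcm helicase, fell from 6.04 ± 1.1 to 2.63 ± 0.773 RPM (-1.08), while Rfc2, of the clamp loader, rose from 20.5 ± 0.666 to 27.6 ± 2.5 RPM (0.42) and Nasp, a histone chaperone, from 13.3 ± 0.939 to 17.5 ± 0.366 RPM (0.38). Of 38 further mitotic genes 2 rose and 5 fell. The 3 of lowest p fell: Hmgb2, a chromatin protein of proliferating cells (-1.04), Anln, anillin of the cleavage furrow (-0.60), and Stmn1, a microtubule destabiliser (-0.92). These shares of 27.9% and 18.4% called stand beside 30.4% of all genes. The median difference of the mitotic list was 0.18 in anti-Ly6G, or -0.04 without control pool 3, 0.33 without control pool 1 and 0.11 without control pool 2. In KO it was 0.31, or 0.14 without control pool 3 and 0.47 without control pool 1. There 34 of the 38 differences lay above 0, beside 5852 of all 11791 genes, and none passed the limma test.

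Of 45 further cycle regulators, 9 rose and 4 fell in anti-Ly6G (28.9%). E2f6, a repressive E2F, rose from 6.30 ± 0.731 to 11.7 ± 1.5 RPM (0.84), Ccnl2, a cyclin linked to splicing, rose from 65.7 ± 5.44 to 102 ± 6.83 RPM (0.64), and Cdk9, a kinase of transcript elongation, fell from 43.0 ± 3.03 to 30.9 ± 2.60 RPM (-0.47). Of 32 listed p53 targets 2 rose and 9 fell (34.4%). Ddb2, a DNA damage sensor, rose (0.72), and Plk2, a polo-like kinase (-0.81), and Tap1, the peptide transporter of antigen presentation (-0.77), fell. These 12 genes of the 4 lists had limma adjusted p from 0.000183 (E2f6) to 0.00935 (Stmn1), and with the mitochondria label as a covariate 4 of them still passed: E2f6, Nasp, Anln and Plk2. In KO against control 0 genes of the 4 lists passed limma's test, and an unadjusted p under 0.05 was found for 5 replication genes, 9 mitotic genes, 5 regulators and 3 p53 targets, beside 18.9% of all genes.

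In KO against anti-Ly6G, the lists held 3 higher and 7 lower replication genes, 4 and 0 mitotic genes, 4 and 7 regulators and 13 and 2 p53 targets. These are 23.3% of 43, 10.5% of 38, 24.4% of 45 and 46.9% of 32 genes, beside 26.8% of all genes, 13.6% higher and 13.1% lower. Stmn1 (1.21), Incenp, of the chromosomal passenger complex (0.57), Anln (0.54), Dnmt1, the maintenance DNA methyltransferase (0.53), Anapc2, of the anaphase-promoting complex (0.41), Tap1 (0.75), Plk2 (0.78) and Gadd45g, a growth arrest gene (1.43), were higher in KO. Nasp (-0.41), Orc5 (-0.36), Ccnl2 (-0.89) and E2f6 (-0.62) were lower. Limma adjusted p of these 12 ran from 3.51e-05 (Ccnl2) to 0.0270 (Incenp). The Incenp call was lost without KO pool 3 (0.53) or 4 (0.52) or anti-Ly6G pool 1 (0.56) or 2 (0.47), and that of Anln without KO pool 3 (0.45). Dnmt1 lost its call with the mitochondria label as a covariate and with KO pools 3 and 4 alone (0.44 in both, limma, adjusted p = 0.0614 and 0.0806).

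Markers of several other cell types also fell in anti-Ly6G. In bulk liver, fewer cells of a type and less RNA per cell cannot be told apart. Of 17 monocyte and macrophage markers 16 were measured, and they summed to 638 to 1110 RPM in control, 928 to 1100 RPM in KO and 383 to 569 RPM in anti-Ly6G pools. The 6 measured of 14 neutrophil markers (S100a8, S100a9, Csf3r, Cxcr2, Clec4d and Fpr1) summed to 17.8 to 33.6, 30.3 to 33.4 and 8.89 to 17.4 RPM. All 11 stellate cell markers summed to 406 to 571, 509 to 631 and 305 to 458 RPM. The 2 measured of 7 bile duct markers, Spp1 and Sox9, summed to 40.9 to 62.9, 58.0 to 81.6 and 25.9 to 37.6 RPM. Most of that sum was Spp1 (41.1 RPM in control, beside 9.49 RPM for Sox9). From control, Spp1 differed by 0.57 and Sox9 by -0.20 in KO, neither past the test. The 5 measured of 9 B cell markers summed to 18.2 to 28.9, 23.7 to 37.4 and 14.3 to 19.3 RPM, and Ccl5, measured alone of 12 T and NK cell markers, lay at 3.62 to 6.54, 4.54 to 7.51 and 1.70 to 3.65 RPM. The 9 endothelial markers summed to 258 to 296, 180 to 307 and 214 to 246 RPM. Sums of the 8 measured of 9 hepatocyte markers (108000 to 124000, 99700 to 124000 and 102000 to 139000 RPM) and the 5 measured of 8 erythroid markers (245 to 318, 297 to 535 and 184 to 408 RPM) overlapped among the groups. In anti-Ly6G against control 4 of 6 neutrophil, 7 of 16 macrophage and 6 of 11 stellate markers fell, beside 15.3% of all genes. The macrophage list was mixed, with 14 differences below 0 and 2 above, Clec4f (0.15) and Ccr2 (0.50). Gpnmb alone averaged 164 RPM in control and 23.0 RPM in anti-Ly6G. The neutrophil list was mixed too, as Fpr1 (0.37) lay above 0 and Cxcr2 at -0.04, neither past the test. In KO against control 0 of 6 neutrophil, 0 of 16 macrophage, 0 of 9 endothelial and 1 of 11 stellate markers passed. That marker was Tagln (0.60), and 1.12% of all genes passed. By direction, 13 of 16 macrophage (median 0.32), 10 of 11 stellate (0.42) and 5 of 6 neutrophil differences (0.25) lay above 0 in KO. Over all genes 5852 of 11791 did. Of the 9 endothelial differences 8 lay below 0 (median -0.32). No measured marker was at 0 in any pool. Within the control group, pools 1 to 4 had mitotic sums of 57.5, 40.8, 28.9 and 49.8 RPM. Their macrophage sums were 638, 796, 803 and 1110 RPM. The part of these cell types in the members' changes was not tested.

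**Figure D4:**
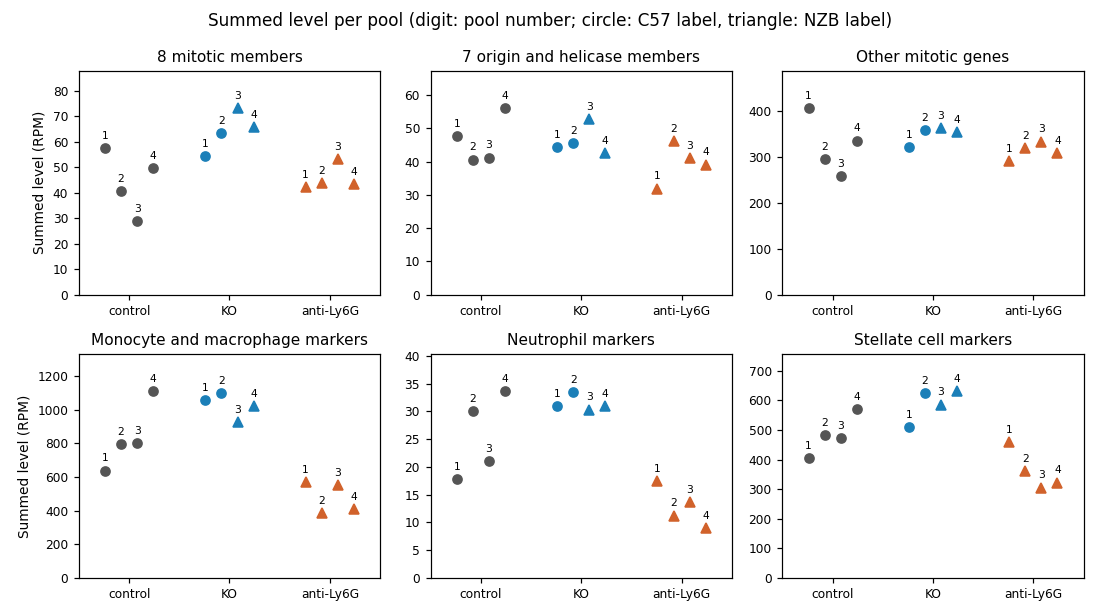
Summed level in RPM per pool for the 8 mitotic members, the 7 origin and helicase members, 38 other mitotic genes and 3 sets of cell type markers, with the pool number above each point. Anti-Ly6G pools have lower macrophage sums (383 to 569 RPM) than control pools (638 to 1110 RPM), while their mitotic sums (42.2 to 53.1 RPM) lie within the control range.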

How the data were processed

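RNA of 12 liver pools, 4 per group, was sequenced on the Genome Analyzer IIx named by the labels. Values deposited by the authors are a signal, normalized reads per gene. The submitters' processing notes list Bowtie2 2.0.6, RSEM 1.2.3, cutadapt 1.2.1, GRCm38 and edgeR with no roles; strand use, annotation and gene filter were not stated. In each column 100% of values were whole multiples, within 0.01, of the value of 1 read, and TMM factors recomputed from those reads matched the scaling with a ratio of 1. The signal was tested with limma 3.58.1 (trend) in R 4.3.3, all 12 libraries in 1 fit with group as the only term, after a filter (group mean of at least 1) that removed 0 genes. Alternatives were pseudocounts of 0.1 and 1 in place of 0.5, total-count scaling, edgeR 4.0.16 and DESeq2 1.42.0 on recovered reads, 2 groups only, left-out libraries, pool number as a block, the mitochondria label as a covariate and KO pools of 1 label. The stricter filter kept the same 11791 genes and was not run apart. Each measured member is named, in every pool where it passed in any comparison, and from each further list the 3 called genes of lowest p. Members and lists were chosen with earlier results of these data known. The test was tried on simulated data first. Positions, exon lengths and the 25-base words came from GENCODE vM21, promoters from RefSeq. The floor of 3 reads covers counting error only.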

Additional observations from a re-analysis of the deposited data

Results flagged for a closer look

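Among 123 sets of 4 pools (41 members in 3 groups), 6 held a pool whose gap to its nearest neighbour, as a share of the whole range, exceeded Dixon's 95% critical value, which chance gives for about 1 in 20. Control pool 4 stood high in Ccnd1 (121 RPM, the others 66.1 to 69.1), Mcm3 (6.94 RPM, the others 4.28 to 4.61) and Pold1 (3.83 RPM, the others 1.75 to 1.83). Control pool 1 stood high in Ccnd3 (71.3 RPM, the others 51.6 to 54.3) and Pole (5.80 RPM, the others 1.37 to 2.11). Anti-Ly6G pool 4 stood low in Orc2 (5.09 RPM, the others 5.88 to 6.03).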

How the results depend on the processing

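With 4 pools a group, the KO calls depended on most settings. In anti-Ly6G the call of Cdc20 was lost in 12 of 16 fits, and the other calls only with the mitochondria label as a covariate. In that fit the difference of Ccnd1 was 0.195 in place of 0.86 and that of Rrm2 -0.844 in place of -1.08. The differences of Ccnd3, Ccnf, Rbl2, Orc2 and Rpa1 moved less. A call lost in that fit does not show that the difference came from the label. Members higher in KO numbered 1, but 0 with a pseudocount of 0.1, the pool number as a block, the label as a covariate or KO pools 1 and 2 alone, 3 with DESeq2 and 0 to 2 with 1 library left out. Members lower in KO numbered 0, but 2 with DESeq2 and 0 to 2 with 1 library left out. Over all genes KO gave 69 higher and 63 lower, or 123 and 37 with total-count scaling, 268 and 309 with DESeq2, 10 and 10 with the block, 25 and 54 with the covariate, 13 and 45 with KO pools 1 and 2 alone, and 2 to 177 and 1 to 142 with 1 library left out. Members higher in anti-Ly6G numbered 2, or 1 with a pseudocount of 0.1, total-count scaling, edgeR or 2 groups only, 0 with the covariate and 1 to 4 with 1 library left out. The 6 lower members became 0 with the covariate and 6 to 7 with 1 library left out. Over all genes the covariate gave 517 higher and 456 lower, and left-out libraries 1363 to 1832 and 1389 to 1814. In KO against anti-Ly6G, members lower numbered 0, but 1 with the block (Ccnd1) and 0 to 2 with 1 library left out, and members higher 4, or 6 with total-count scaling, 5 with DESeq2 or 2 groups only, 3 with the covariate or KO pools 3 and 4 alone and 3 to 5 with 1 library left out. Over all genes this comparison gave 701 lower with total-count scaling, 1070 higher and 971 lower with KO pools 3 and 4 alone, and 1257 to 1636 and 1093 to 1630 with 1 library left out.

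Of the differences named, those of Ccnd3 in KO (0.033 with total-count scaling, 0.077 without control pool 1, otherwise down to -0.078 with 1 library left out) and Ccnd1 in KO (-0.132 with the covariate and with KO pools 1 and 2 alone) changed sign. So did the anti-Ly6G medians of the mitotic members (-0.05 without control pool 3 to 0.45 without control pool 1, -0.01 with the covariate) and of the other mitotic genes (-0.04 without control pool 3 to 0.33 without control pool 1). The cause was not tested. Pool numbers do not pair the samples, with same-number correlations of deviations of 0.01 to 0.13 between KO and control, -0.11 to 0.02 between anti-Ly6G and control and -0.21 to 0.17 between KO and anti-Ly6G. The block took the calls of Ccnf in KO (adjusted p = 0.0537, limma) and Cdc20 in anti-Ly6G (0.0773), and added Cdc25a (0.0401) and Cdkn2c (0.0165) in anti-Ly6G.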
